A study of Homo sapiens with 6 samples.

Results

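SET, PTMA, PTMS, ANP32A, ANP32B, ANP32E, NAP1L1, NAP1L4, NPM1 and NCL encode acidic histone chaperones and related acidic nuclear proteins. The mRNA levels of these 10 genes, of 23204 gene symbols measured, were followed in 6 RNA-seq libraries of HEK293T cells, a human embryonic kidney line. The genes were chosen by name, with earlier results of these data known. SET and PTMA were taken because the study names them among the mRNAs that crosslink to DDX3X, and the other 8 because they encode acidic chaperones of the same kind. NPM1, NCL and ANP32B are also listed among DDX3X-bound transcripts in the study's peak table, so the 8 genes do not form a set of unbound mRNAs. DDX3X, an RNA helicase of the DEAD-box family, acts in mRNA translation and is mutated in medulloblastoma.

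The study asked whether loss of DDX3X, or forced expression of its wild-type or medulloblastoma-associated forms, alters the level of its mRNA targets. In the plasmid arm, 4 libraries came from cells that were transiently transfected with 5 µg of plasmid for 32 h and then collected by flow cytometry as GFP-positive cells. The plasmid encoded GFP alone (GFP), GFP fused to wild-type DDX3X (GFP-DDX3X WT), or the same fusion carrying the T275M or the G302V substitution. The names of the mutants follow the labels. A plot legend of the study names G302V and, in place of T275M, another substitution, and which of the 2 mutants that library held is known only from the label. The labels also give a second, shorter time for these transfections. In the siRNA arm, 2 libraries came from cells treated for 48 h with control siRNA or DDX3X siRNA, with no sort described. All cells kept their own DDX3X gene, so the mutants were measured over an endogenous wild-type background. Each group held 1 library and no replicate, so no test between conditions was possible, no p-value is given, and a difference compares 2 libraries. Intervals given below cover counting error only.

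Histone chaperones bind histones before and after their deposition on DNA and keep these basic proteins from sticking to nucleic acid. The proteins described here are rich in aspartate and glutamate, in stretches of differing length. SET is also an inhibitor of protein phosphatase 2A and belongs to the nucleosome assembly protein fold family together with NAP1L1 and NAP1L4, while prothymosin alpha (PTMA) is a small disordered protein that binds linker histone.

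Aspartate and glutamate are read from codons that begin with GA followed by any base, here called acidic codons, so the acidic stretches can be seen in the coding sequence itself. The window of 25 codons (75 bases) with the most acidic codons is shown for SET and PTMA, on which the comparison turns, and for 1 member each of the ANP32, NAP1L and nucleophosmin kinds. Acidic codons are in capitals, in GENCODE 44 transcripts on GRCh37, coding strand, 5′ to 3′. 
SET: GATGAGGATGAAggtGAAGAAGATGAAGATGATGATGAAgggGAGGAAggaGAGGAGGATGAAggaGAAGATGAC
PTMA: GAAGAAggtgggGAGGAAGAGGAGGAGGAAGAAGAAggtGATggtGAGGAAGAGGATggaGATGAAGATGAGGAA
ANP32B: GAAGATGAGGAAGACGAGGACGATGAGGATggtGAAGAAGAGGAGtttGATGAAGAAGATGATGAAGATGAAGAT
NAP1L1: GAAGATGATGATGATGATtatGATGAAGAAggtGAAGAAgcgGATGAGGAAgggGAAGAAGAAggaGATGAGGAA
NPM1: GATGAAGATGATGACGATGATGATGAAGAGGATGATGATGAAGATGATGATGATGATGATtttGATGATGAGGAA
The SET window lies on the plus strand at chr9:131456268-131456940, in coding exons 7 and 8 of 8, and forms the last 25 of 277 codons. That of PTMA lies on the plus strand at chr2:232576651-232577184, in coding exons 3 and 4 of 5. The ANP32B window sits within exon 5 of 7 at chr9:100773558-100773632 on the plus strand. NAP1L1 has its window on the minus strand at chr12:76443004-76444328, across exons 12 to 14 of 15. For NPM1 it is at chr5:170819939-170827187 on the plus strand, across exons 6 and 7 of 11. Every span except that of ANP32B includes introns.

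Acidic codons made up 48.2% of the PTMA coding sequence and 46.1% of that of PTMS, its close relative parathymosin. The share was 38.1% in ANP32E, 37.5% in ANP32B and 35.7% in ANP32A, 3 leucine-rich repeat proteins with an acidic tail. It was 31.8% in SET and 26.6% in NAP1L1. NCL (nucleolin) had 24.8%, NAP1L4 22.1% and NPM1 (nucleophosmin) 22.1%, against a median of 11.4% over 18751 human coding sequences. The most acidic codons in a row, given here without NCL, was 20 in NPM1 and ANP32E, 15 in ANP32B, 13 in PTMS, 11 in SET and ANP32A, 8 in PTMA, 6 in NAP1L1 and 5 in NAP1L4, and the median over all coding sequences was 3.

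**Figure D1:**
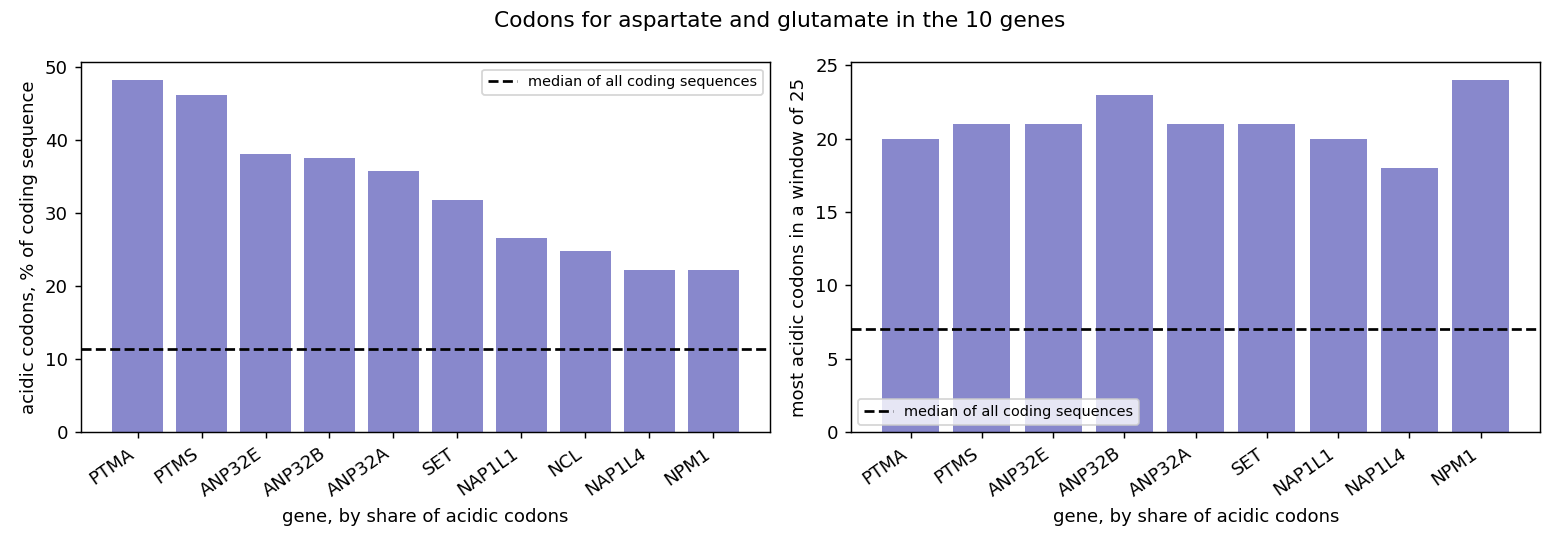
Share of acidic codons in the coding sequence of the 10 genes in percent (left) and the most acidic codons in any window of 25 codons for 9 of them (right, without NCL), 1 bar per gene, with the median of all 18751 coding sequences dashed. Every bar stands above its median, from 22.1 to 48.2% on the left and from 18 to 24 codons on the right.

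Related members share limited sequence. The coding sequences of ANP32A and ANP32B were identical at 71.3% of aligned bases, those of NAP1L1 and NAP1L4 at 69.7%, and those of PTMA and PTMS at 66.7%. The longest identical run between the transcripts of these 3 pairs was 14, 17 and 16 bases. It was 20 bases between ANP32E and either ANP32A or ANP32B, 22 between SET and NAP1L1 and 23 between NPM1 and NCL. Processed copies are another matter, since the annotation names 49 pseudogenes after NPM1, 19 after SET and 12 after PTMA, and none after PTMS or ANP32E. The share of reads that these copies took or gave was not measured, so levels of NPM1, SET and PTMA are uncertain to that extent. No exon of another annotated gene overlapped the exons of the 10 principal transcripts.

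Levels are deposited as RPKM, reads scaled to transcript length and to the library total, and the read totals recovered from them ran from 43715149 reads in GFP-DDX3X G302V to 67520577 in control siRNA, with 180868800 in DDX3X siRNA. DDX3X stood at 107 RPKM in control siRNA and 31.3 RPKM in DDX3X siRNA, and at 119 RPKM in GFP against 2894, 3279 and 1906 RPKM in GFP-DDX3X WT, T275M and G302V, in the direction of each label. The labels call the cells neuronal. Of 14 neuron markers, 4 to 6 reached 1 RPKM. NEFM (514 to 683 RPKM) and NEFL (109 to 140 RPKM) were high, ELAVL4 was listed at 0 in every library, and DCX, STMN2, MAP2 and RBFOX3 stayed below 1 RPKM. TUBB3 (5.60 to 9.28 RPKM) and SYP (2.74 to 5.59 RPKM) were above 1 RPKM in every library. All 3 epithelial markers tested (KRT8, KRT18 and CDH1) were lower by 1.2-fold or more in DDX3X siRNA than in control siRNA, with a median log2 ratio of -0.31. Of all genes tested in this pair, 12.4% were this much lower, and CDH1 was near 1 RPKM (0.939 against 1.45). NEFM and NEFL were lower in GFP-DDX3X WT than in GFP, with log2 ratios of -0.41 and -0.36, while SNAP25 was higher, at 1.38 against 0.115 RPKM. Of all genes tested in that comparison, 2.63% were lower and 14.3% higher by 1.2-fold or more. In T275M NEFM was also lower than in GFP (-0.37) and SNAP25 was at 1.22 RPKM, but G302V had -0.16 and 0.290 RPKM. SYP was higher than in GFP in all 3 constructs (0.42, 0.39 and 0.82 in WT, T275M and G302V). The part of these markers in the members' values was not tested. Epithelial KRT18 lay between 34.3 and 47.3 RPKM, and 4 lymphoid or myeloid markers summed to 0.351 to 0.795 RPKM. In bulk RNA, fewer cells of a type and less RNA per cell cannot be told apart.

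All 10 genes were abundant in every library, with between 7932 and 455751 reads per gene and library. SET was measured at 358 RPKM in GFP, 344 in GFP-DDX3X WT, 342 in T275M, 336 in G302V, 349 in control siRNA and 331 in DDX3X siRNA. Its highest value was 1.08 times its lowest, the narrowest spread of the 10 genes. PTMA was measured at 1447 RPKM in GFP, 1305 in GFP-DDX3X WT, 1283 in T275M, 1310 in G302V, 1445 in control siRNA and 1175 in DDX3X siRNA, a spread of 1.23 times. Both control libraries lay above the 4 libraries with altered DDX3X for either gene, by little for SET. NPM1, NAP1L1 and NAP1L4 had the same order, and the share of all genes with it was not counted.

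NPM1, a ribosome biogenesis and histone chaperone of the nucleolus, was the most abundant of the 10, with 2067 RPKM in GFP, 1902 in GFP-DDX3X WT, 1761 in T275M, 1694 in G302V, 2030 in control siRNA and 1739 in DDX3X siRNA. NCL, a nucleolar RNA-binding protein, was at 766 RPKM in GFP, 674 in GFP-DDX3X WT, 633 in T275M, 607 in G302V, 645 in control siRNA and 599 in DDX3X siRNA. Within the plasmid arm, both genes were lower in the 3 DDX3X constructs than in GFP and lowest in G302V. NCL was also lower in control siRNA than in GFP, where no DDX3X was altered.

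ANP32B was at 275.4 RPKM in GFP, 275.5 in GFP-DDX3X WT, 248 in T275M, 227 in G302V, 274.8 in control siRNA and 218 in DDX3X siRNA. Its 2 controls and GFP-DDX3X WT were alike within counting error, and the other 3 libraries were lower. ANP32A, which also binds protein phosphatase 2A, was at 218, 208, 193, 186, 194 and 164 RPKM in the same order of libraries. ANP32E, a chaperone that removes the histone variant H2A.Z, stood lower and varied less, from 76.8 RPKM in DDX3X siRNA to 86.7 in GFP.

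PTMS ranged from 149 RPKM in DDX3X siRNA to 207 in GFP-DDX3X WT, the widest spread of the 10 genes at 1.38 times. Its other levels were 195 RPKM in GFP, 191 in T275M, 173 in G302V and 178 in control siRNA. NAP1L1 ranged from 179 RPKM in GFP-DDX3X WT to 205 in GFP, and NAP1L4 from 63.8 RPKM in DDX3X siRNA to 79.5 in GFP. Both encode nucleosome assembly proteins that carry H2A and H2B.

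The order of levels was stable at the top. NPM1 exceeded PTMA, PTMA exceeded NCL, NCL exceeded SET, and SET exceeded ANP32B in all 6 libraries, by more than the counting intervals. ANP32A, NAP1L1 and PTMS changed places with each other between libraries, and ANP32E stayed above NAP1L4. DDX3X siRNA held the lowest value for 8 of the 10 genes, with NPM1 lowest in G302V and NAP1L1 lowest in GFP-DDX3X WT. The share of all genes that were lowest in DDX3X siRNA was not counted. Abundant genes as a whole were lower there than in control siRNA, with a median log2 ratio of -0.10 over 903 genes of 100 RPKM or more. Reads on the 10 genes made up 1.03% in GFP, 0.946% of GFP-DDX3X WT, 0.906% of T275M, 0.887% of G302V, 0.979% of control siRNA and 0.856% of DDX3X siRNA, and the 95% Wilson intervals of these shares did not overlap.

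**Figure D2:**
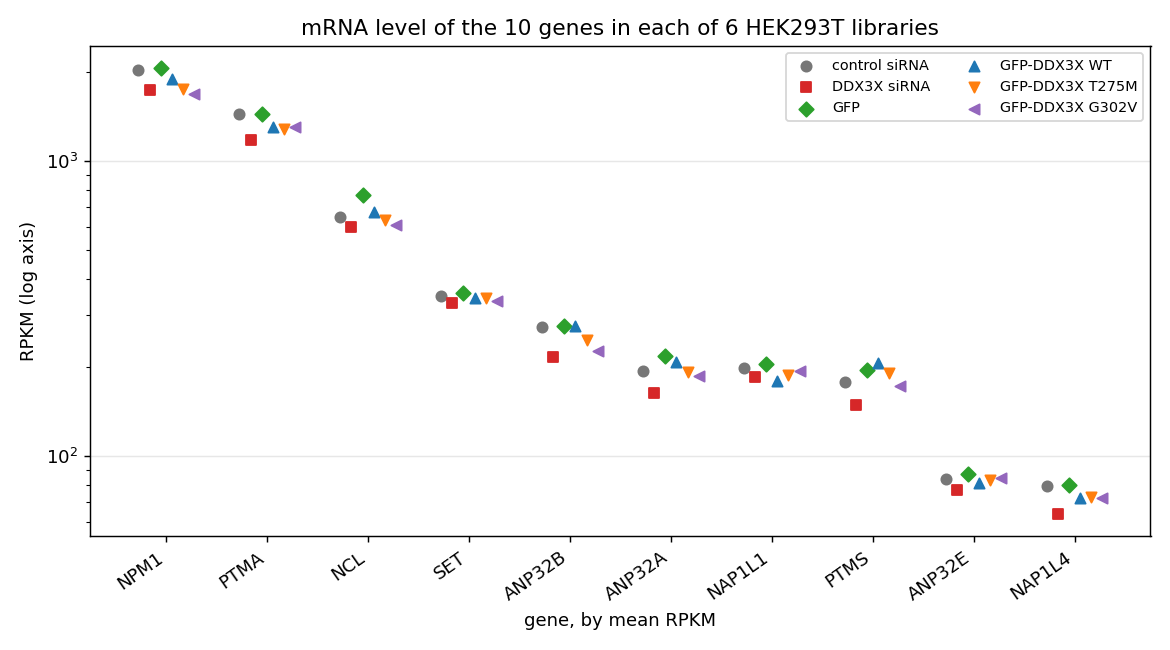
RPKM (log axis) of each gene in the 6 libraries, 1 point per library, genes ordered by mean RPKM. NPM1 lies between 1694 and 2067 RPKM and NAP1L4 between 63.8 and 79.5, the points of SET nearly coincide (331 to 358), and the DDX3X siRNA square is the lowest point for 8 of 10 genes. The share of all genes lowest in that library was not counted.

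Differences are given as the log2 ratio of RPKM + 1 between 2 libraries, for genes with at least 1 RPKM and 10 reads in 1 of them. All 10 genes passed in every comparison. A difference is counted past 1.2-fold, which is 0.26 on this scale, and past 2-fold. No member was past 2-fold in any of the 7 comparisons, and none was 1.2-fold or more higher. Counts of members by sign, or by an interval that excludes 0, stand without the share of all genes, which was not counted.

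In DDX3X siRNA against control siRNA, all 10 genes were lower and 3 of them, ANP32B, NAP1L4 and PTMA, were lower by 1.2-fold or more. Among 12694 genes tested, 12.4% were this much lower, 11.0% this much higher and 0.11% past 2-fold, and among 903 genes of 100 RPKM or more 15.8% were this much lower. PTMA differed by -0.30 (95% counting interval -0.31 to -0.29) and SET by -0.08 (-0.09 to -0.06), the smallest of the 10. The intervals of the 2 genes do not meet. ANP32B had the largest difference, -0.34 (-0.36 to -0.32), from 274.8 to 218 RPKM, and NAP1L4 had -0.31 (-0.34 to -0.28). PTMS, at -0.25, and ANP32A, at -0.24, were just short of 1.2-fold, while NCL, NAP1L1 and ANP32E lay between -0.10 and -0.12. The median of the members was -0.23, against -0.02 for all genes tested and -0.10 for those of 100 RPKM or more. Under median-ratio scaling, which moves all ratios of this comparison by 0.08, the count was 0 and SET changed sign to 0.01.

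PTMA and SET can also be set against each other within a library, where the library total cancels. The ratio of PTMA to SET in RPKM was 4.14 in control siRNA, 4.05 in GFP, 3.90 in G302V, 3.79 in GFP-DDX3X WT, 3.75 in T275M and 3.55 in DDX3X siRNA. The lowest ratio was thus in the depleted library and the highest 2 in the controls. The ratio of NPM1 to SET ran from 5.05 in G302V to 5.82 in control siRNA.

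The DDX3X siRNA library was the deepest, and the abundant members were covered there at many reads per base of transcript. PTMA had 213 reads per base in DDX3X siRNA and 97.6 in control siRNA, and SET had 59.8 and 23.5. NPM1, with 315 reads per base in DDX3X siRNA, differed by -0.22, and PTMA by -0.30. NCL, at 108, differed by -0.11, and NAP1L4, at 11.5, by -0.31. For RNA-seq mapping the study's methods refer to the steps of its crosslinking data, in which duplicate reads were removed. Those steps call the reads both single-ended and paired-end, so how duplicates were defined here is not known. The part of duplicate removal and of coverage in these values was not tested.

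In GFP-DDX3X WT against GFP, none of the 10 genes was past 1.2-fold. The share of all 12915 genes tested was 2.63% lower, 14.3% higher and 0.248% past 2-fold, with 5.87% lower among 920 genes of 100 RPKM or more. SET differed by -0.05 (-0.07 to -0.04) and PTMA by -0.15 (-0.16 to -0.14). NAP1L1 and NCL had the largest differences, both -0.19. ANP32B did not differ within counting error, at 0.00 (-0.02 to 0.03), and PTMS was the 1 gene whose interval lay above 0, at 0.08 (0.05 to 0.12). The median of the members was -0.11, that of all genes 0.05 and that of the abundant genes -0.07. Median-ratio scaling moved all ratios of this comparison by -0.10, after which PTMS was at -0.02 and ANP32B at -0.10.

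In GFP-DDX3X T275M against GFP, all 10 genes were lower and NCL alone was past 1.2-fold, at -0.28 (-0.29 to -0.26), an interval that ends at the threshold. Of 12912 genes tested, 5.61% were this much lower, 18.7% this much higher and 0.372% past 2-fold, and of 912 genes of 100 RPKM or more 17.5% were this much lower. NPM1 followed with -0.23, then ANP32A with -0.18 and PTMA with -0.17 (-0.19 to -0.16). SET differed by -0.06 (-0.08 to -0.04), and the interval of PTMS, at -0.03, included 0. The median was -0.14 for the members, 0.07 for all genes and -0.15 for the abundant genes. Median-ratio scaling gave 4 members past 1.2-fold, all lower, and a median of -0.24 for the members. DDX3X, from the construct and the cell's own gene together, took 1.77% of the reads of this library, and with DDX3X reads left out of the totals, an alternative added after the data were seen, NCL was at -0.25 and no member was past 1.2-fold.

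In GFP-DDX3X G302V against GFP, all 10 genes were again lower, and NCL, NPM1 and ANP32B were past 1.2-fold. The share of 12775 genes tested was 5.99% lower, 13.3% higher and 0.305% past 2-fold, with 17.2% lower among 902 genes of 100 RPKM or more. NCL differed by -0.34 (-0.35 to -0.32), from 766 to 607 RPKM, NPM1 by -0.29 (-0.30 to -0.28), and ANP32B by -0.28 (-0.30 to -0.25). PTMA differed by -0.14 (-0.16 to -0.13), SET by -0.09 (-0.11 to -0.07) and ANP32E by -0.04 (-0.07 to -0.0048). Medians were -0.16 for the members, 0.03 for all genes and -0.15 for the abundant genes. Median-ratio scaling gave 4 members past 1.2-fold, all lower, with ANP32A added at -0.265. The 3 comparisons with GFP share the GFP library, and are not independent of each other. All 10 genes were also higher in GFP than in control siRNA.

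Set against GFP-DDX3X WT in place of GFP, T275M gave no member past 1.2-fold. Here 2.17% of 12973 genes were this much lower, 2.03% this much higher and 0.0771% past 2-fold, with 1.59% lower among 881 genes of 100 RPKM or more. SET, at -0.01 (-0.03 to 0.01), did not differ within counting error, and PTMA differed by -0.02 (-0.04 to -0.01). ANP32B had the largest difference, -0.15, and NAP1L1 the highest ratio, 0.07. The median of the members was -0.06, against 0.00 for all genes and -0.07 for the abundant ones.

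G302V against GFP-DDX3X WT gave 1 member past 1.2-fold, ANP32B at -0.28 (-0.30 to -0.25), and none under median-ratio scaling, where ANP32B was at -0.21. PTMS was near the threshold at -0.25, from 207 to 173 RPKM. Over 12967 genes tested, 11.8% were this much lower, 6.37% this much higher and 0.185% past 2-fold, with 10.6% lower among 887 genes of 100 RPKM or more. PTMA did not differ within counting error, at 0.01 (-0.01 to 0.02), SET differed by -0.04 (-0.06 to -0.02), and NAP1L1 was higher by 0.11 (0.10 to 0.13). SET changed sign to 0.02 under median-ratio scaling, and PTMA to -0.002 with the DDX3X reads left out. The median of the members was -0.09, against -0.03 for all genes and -0.08 for the abundant ones. Both comparisons of a mutant share the GFP-DDX3X WT library. DDX3X itself differed in them by 0.18 for T275M and -0.60 for G302V, so construct level differed along with the substitution. The part of construct level in the members' values was not tested.

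GFP against control siRNA shows how far 2 control libraries lay apart, although they differ in treatment, time and sorting and are not replicates. All 10 genes were higher in GFP, the library that the comparisons of constructs with GFP share, and the intervals of 7 lay above 0. The share of all genes above 0, or with such an interval, was not counted. No member was past 1.2-fold, while 9.1% of 12730 genes were this much higher, 12.2% this much lower and 0.503% past 2-fold. The median was 0.04 for the members, 0.01 for all genes and 0.04 for the abundant genes. PTMA, ANP32B and NAP1L4 lay at 0.00 and SET at 0.04 (0.02 to 0.05). NCL differed by 0.25 (0.24 to 0.26), ANP32A by 0.17 and PTMS by 0.13. In the other 6 comparisons, the differences of SET were at most 0.09 in size and those of NCL at most 0.34. A single control difference, such as 0.00 for PTMA, ANP32B and NAP1L4, does not measure how far a gene varies between libraries. All genes of 1000 RPKM or more, where PTMA lies, ran from -0.14 to 0.19 here (5th to 95th percentile).

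**Figure D3:**
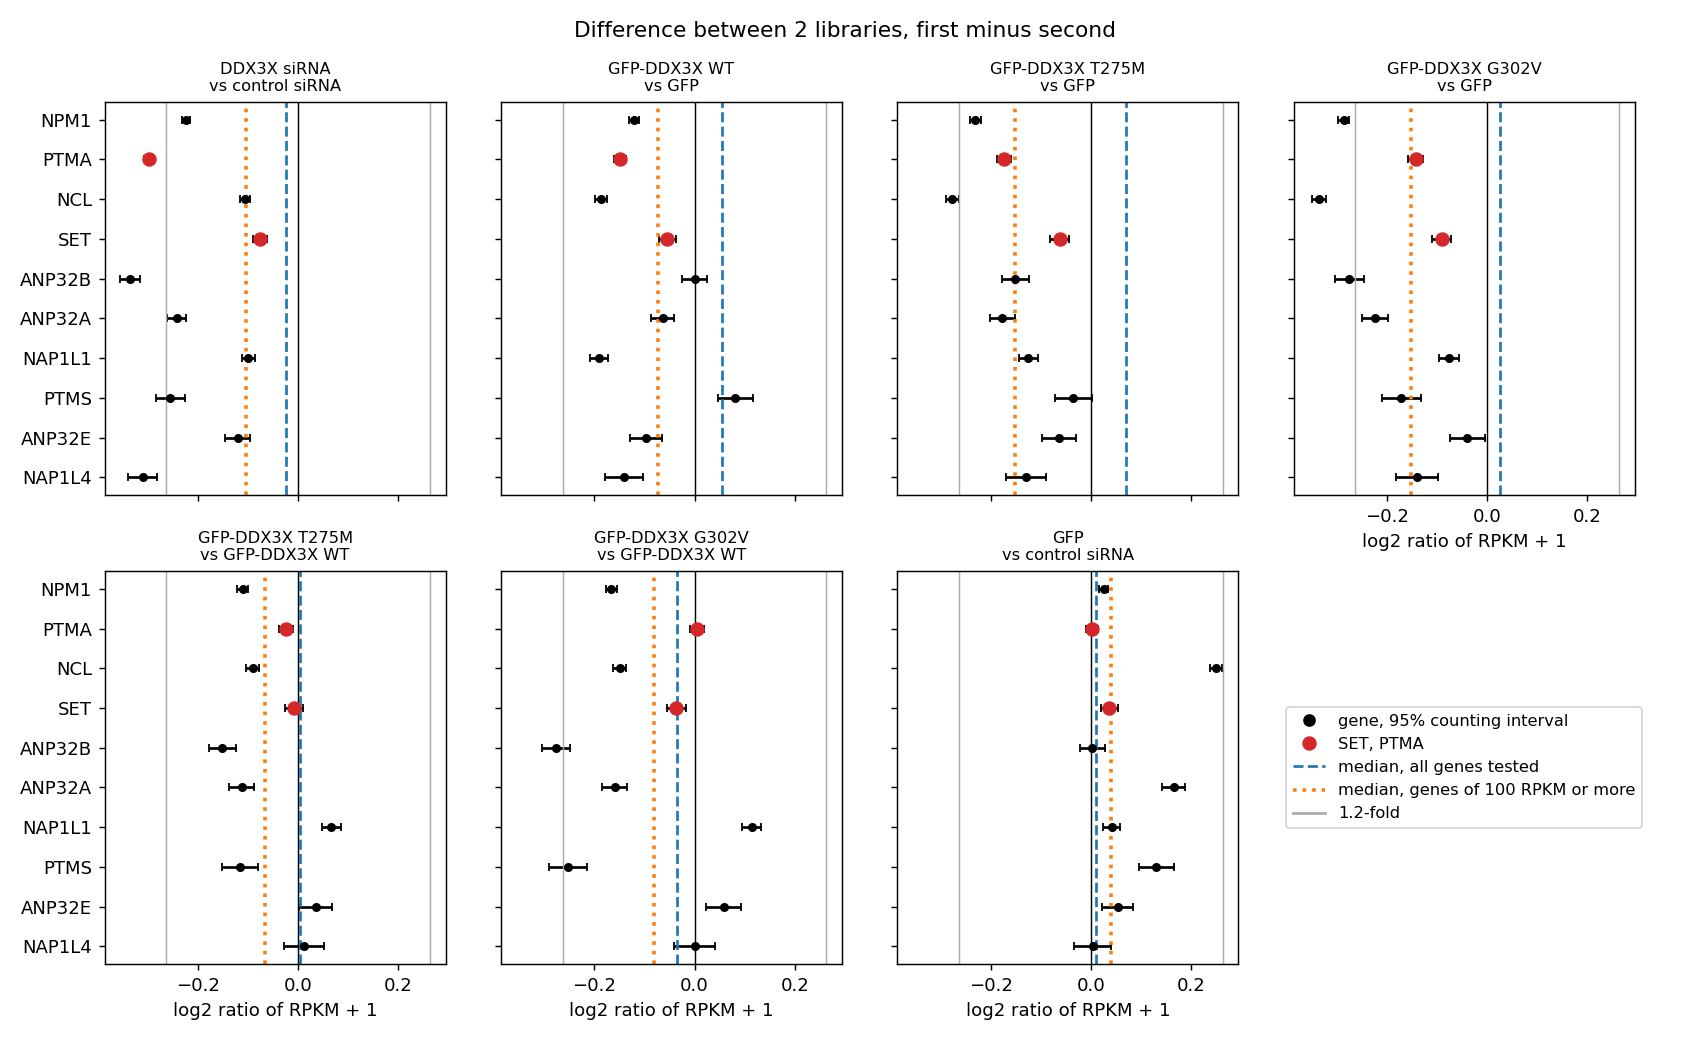
Log2 ratio of RPKM + 1 (x axis) of the 10 genes in each of the 7 comparisons, with 95% counting intervals, SET and PTMA in red, medians of all genes (dashed) and of genes of 100 RPKM or more (dotted), and the 1.2-fold threshold (grey). In DDX3X siRNA against control siRNA SET is the gene nearest 0 and PTMA, ANP32B and NAP1L4 pass the threshold, and no gene passes it on the right in any panel.

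The members are abundant mRNAs, and the median log2 ratio of all genes depended on mRNA level. In T275M against GFP it was 0.16 for genes of 1 to 3 RPKM, -0.15 for 100 to 300 RPKM, -0.15 for 300 to 1000 RPKM and -0.12 for 1000 RPKM or more. In G302V against GFP the same classes had 0.09, -0.16, -0.15 and -0.10, and in GFP-DDX3X WT against GFP 0.13, -0.07, -0.07 and -0.07. In these 3 comparisons the decline lay between the low classes and 100 RPKM, and from there up, where most members lie, the medians were level or less negative. DDX3X siRNA against control siRNA gave -0.04, -0.09, -0.11 and -0.11, and GFP against control siRNA -0.03, 0.05, 0.03 and 0.01. The part of these class differences in the members' values was not tested, but each member can be read beside genes of its own level class.

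Read in this way, 8 of the 10 genes lay below their class median in DDX3X siRNA against control siRNA, with a median gap of -0.13, and none lay outside the range from the 5th to the 95th percentile of its class. SET stood 0.04 above the median of 155 genes of 300 to 1000 RPKM, and PTMA 0.18 below that of 77 genes of 1000 RPKM or more, where 5.19% of genes were lower. In T275M against GFP the median gap was -0.01, with SET 0.09 above its class and NCL 0.12 below the same class. In G302V against GFP it was -0.05, and NPM1, with 4.76% of its class lower, was outside the range. In GFP against control siRNA NCL was outside it on the high side. ANP32B lay near its class median in T275M against GFP, where 51.1% of its class was lower. It was inside the range in G302V against GFP (14.9% lower) and in the siRNA pair (7.75% lower). SET was above its class median in all 7 comparisons, by 0.0044 to 0.09.

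**Figure D4:**
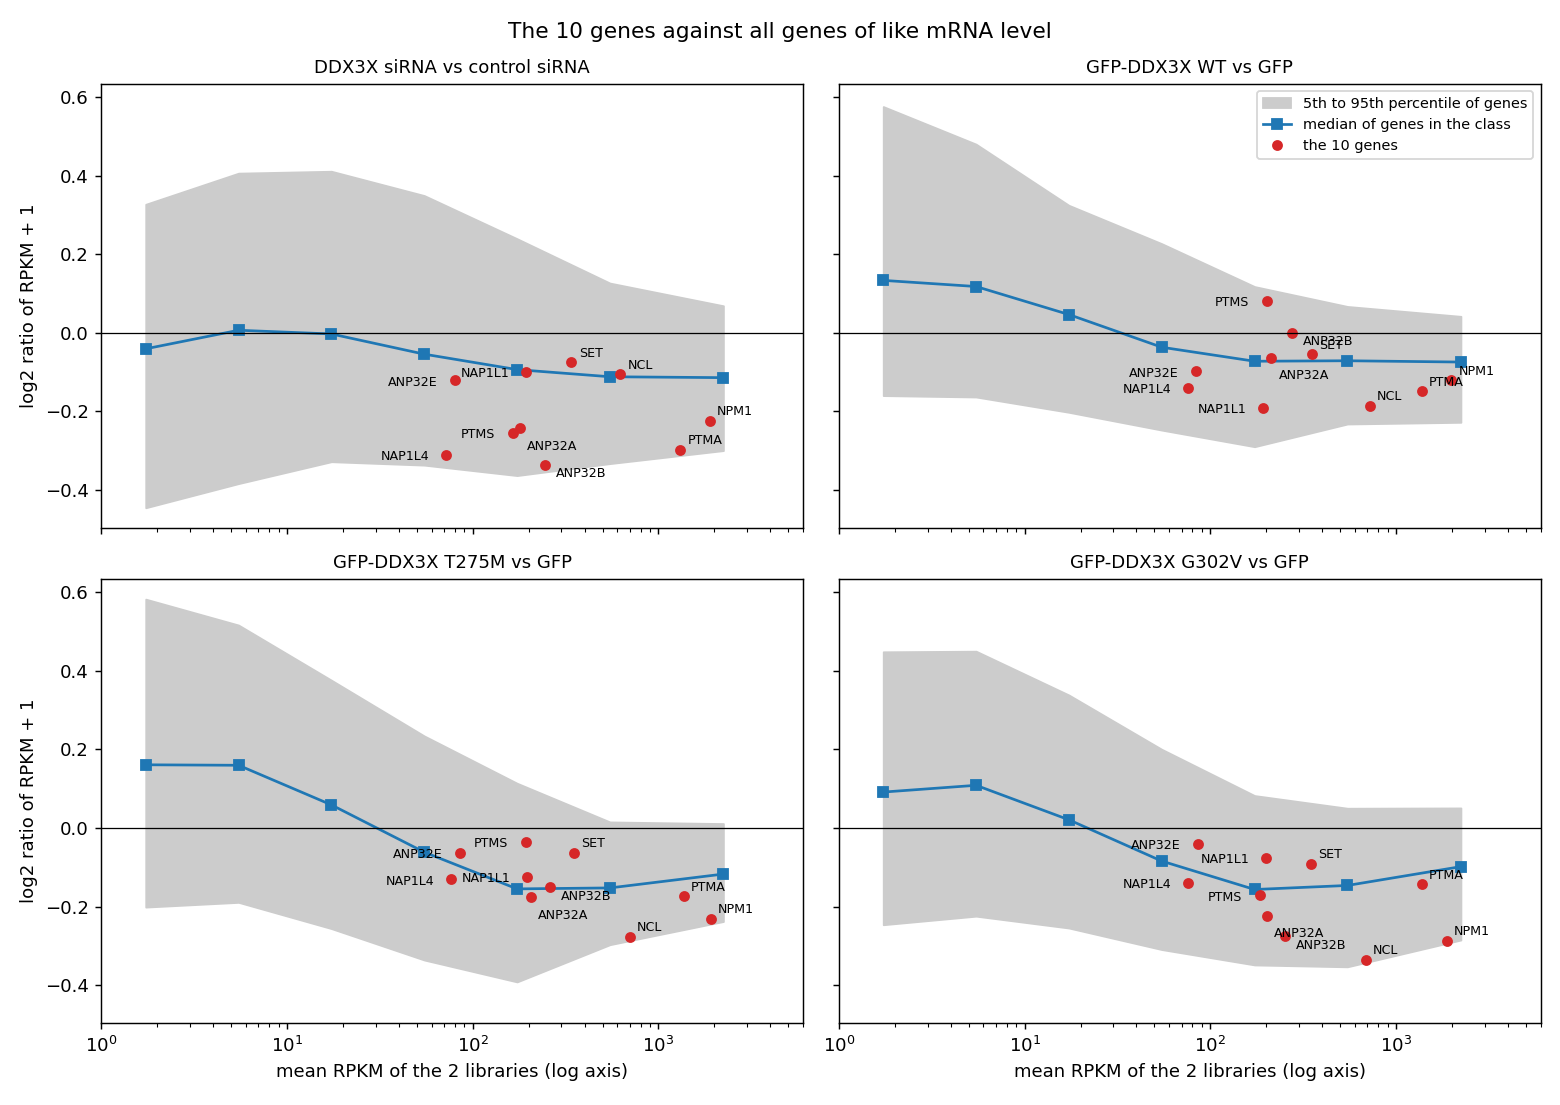
Log2 ratio of RPKM + 1 (y axis) against the mean RPKM of the 2 libraries (log axis) in 4 comparisons, with the median (squares) and the 5th to 95th percentile (grey) of all genes in 7 level classes and the 10 genes in red. In the comparisons with GFP the class medians are above 0 on the left and below 0 from 30 RPKM up, SET lies above the line in every panel, and NPM1 in G302V against GFP falls just below the 5th percentile of its class. The classes are joined at their centres.

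Several transcript rows were deposited for SET (4), ANP32E (3), NPM1 (3), PTMA (2) and NAP1L1 (2), and the row with the highest mean RPKM was used. The rows of a gene gave nearly the same log2 ratio in each comparison, with a range of at most 0.04, for NPM1. The SET row NM_003011 held 107.1 to 107.8% of the reads of the row used, NM_001248001, in every library, and NM_001122821 held 103.2 to 103.6%. The 2 SET rows differ from it in their first exon. For NPM1, NM_199185 held 87.4 to 88.1% and NM_001037738 held 81.4 to 83.4% of the reads of NM_002520. These shares moved by less than 3 percentage points between libraries, although reads shared by the rows of a gene limit what they can show about isoforms.

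Genes around the members were followed through 3 lists. In a list of 20 other histone chaperones, all tested in every comparison, DDX3X siRNA gave 5 genes lower by 1.2-fold or more (ASF1A, ASF1B, NASP, MCM2 and HAT1) and 1 higher (UBN1), with a median of -0.13 against -0.02 for all genes. Of all genes tested, 12.4% were this much lower and 11.0% this much higher. GFP-DDX3X WT gave 1 lower (IPO4), T275M gave 1 lower (IPO4) and 1 higher (ATRX), and G302V gave 3 lower (RBBP7, NASP and MCM2), all against GFP. In the same order, 2.63%, 5.61% and 5.99% of all genes were this much lower, and 14.3%, 18.7% and 13.3% this much higher. Against GFP-DDX3X WT, T275M gave 0 and G302V gave 4 lower (ASF1A, RBBP7, HJURP and HAT1), and GFP against control siRNA gave 1 in each direction. In these 3 comparisons 2.17%, 11.8% and 12.2% of all genes were this much lower, and 2.03%, 6.37% and 9.1% this much higher. The most abundant of the list were SSRP1, a subunit of the FACT complex, RBBP7, a subunit of several chromatin complexes, and NASP, an H3 and H1 chaperone. NASP was at 162 RPKM in control siRNA and 132 in DDX3X siRNA (-0.29), and at 193 in GFP and 152 in G302V (-0.34). SSRP1 differed by -0.12 in the siRNA pair and by -0.14 in G302V against GFP, and RBBP7 by -0.24 and -0.34.

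Of 12 partners of SET, PTMA and ANP32 proteins, 11 were tested, and DDX3X siRNA gave 2 lower, APEX1 and HMGB2, and 0 higher, with the same median of -0.13. The shares of all genes given for the chaperone list stand beside the counts of this list and the next too. APEX1, a DNA repair endonuclease, was at 167 RPKM in control siRNA and 117 in DDX3X siRNA (-0.51), a larger difference than that of any member. HMGB2, a high mobility group protein, was at 174 and 128 RPKM (-0.43). APEX1 was also the 1 partner past 1.2-fold in T275M against GFP (-0.27) and in G302V against GFP (-0.27), and HMGB2 the 1 in G302V against GFP-DDX3X WT (-0.30). NME1, the most abundant partner, differed by -0.11 in the siRNA pair, and PPP2R1A, the scaffold subunit of protein phosphatase 2A, by -0.25. Of 9 other genes of the same families, 5 or 6 were tested and at most 2 passed 1.2-fold in any comparison. NPM3, a nucleoplasmin relative, was the most abundant at 161 RPKM in control siRNA and 158 in DDX3X siRNA, with a lower level in T275M than in GFP (-0.29). TSPYL1 differed by 0.08 in the siRNA pair. TSPYL2 differed by 0.03 there, and by 0.35 in GFP-DDX3X WT and 0.38 in T275M against GFP, by -0.28 in G302V against GFP-DDX3X WT and by 0.38 in GFP against control siRNA. None of the genes of the 3 lists was past 2-fold.

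Profiles over the 6 libraries were compared by the Euclidean distance of log2(RPKM + 1) values centred per gene, among 848 genes with a mean of 100 RPKM or more. Of the 5 genes nearest to SET, 4 were HMGN1 (0.02), VDAC2 (0.03), PFDN5 (0.04) and RPL14 (0.05), all nearly level across the libraries. HMGN1 ran from 255 to 278 RPKM. The 5 nearest to PTMA were AKR1B1 (0.06), AHSA1 (0.06), the row listed as MIR3620 (0.07), COPZ1 (0.07) and CCT3 (0.07). AKR1B1 ran from 166 to 203 RPKM. SET and PTMA were not close to each other, at 0.18, with PTMA ranking 274 from SET. Among the members, ANP32E was nearest to SET (0.09) and NAP1L4 nearest to PTMA (0.04), both under 100 RPKM and so outside the ranking. All distances rest on 6 libraries, share their totals, and are a description with no test.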

How the data were processed

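RNA from 6 libraries of HEK293T cells, 1 per group, was prepared with TruSeq RNA v2 kits and sequenced by the authors on an Illumina instrument. Per the labels and the study's methods, the authors trimmed adapters with Cutadapt, aligned reads with BWA 0.5.5 to the human genome (hg19, NCBI Build 37), transcript and junction sequences, removed duplicates, and divided counts by row length and total reads. The deposited unit is RPKM per transcript row by the file headers (39618 rows per library, 23204 symbols), while the methods speak of FPKM. Whether counting used strand is not given in the sources used here.

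Per symbol, the row with the highest mean RPKM was used. Whole reads were recovered from RPKM and row length (100% of 7961 to 9033 rows checked per library came out whole within 0.1), and gave the read totals and 95% counting intervals (exact Clopper-Pearson, conditional on the sum of both counts). Ratios are log2(RPKM + 1), which understates the change of low genes, for genes of at least 1 RPKM and 10 reads in 1 of the 2 libraries. With 1 library per group no test was run. The genes named are the 10 members, DDX3X, the 3 most abundant of each list (plus any past 2-fold at 10 RPKM or more), and the 5 nearest profiles of SET and of PTMA. Other names were added after their values were seen, as they make up counts of calls. The members and lists were chosen with earlier results of these data known. Pair identity, codons and pseudogene names came from GENCODE 44 on GRCh37 (Biopython 1.88, global alignment). Protein sequences were not used here, and some items are not reported here. Alternatives covered the pseudocount, filter, scaling, CPM from recovered reads, row choice and threshold. Scripts used Python 3.11.15, numpy 2.4.6, pandas 2.3.3 and scipy 1.17.1, and the ratio step was tested on simulated counts.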

Additional observations from a re-analysis of the deposited data

How the results depend on the processing

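Pseudocounts of 0.1 and 10, no filter beyond 1 read, CPM from recovered reads, the sum of the rows per symbol and the row with the lowest mean changed 0 of 70 calls of a member in a comparison. A minimum of 100 RPKM left 56 values, without ANP32E and NAP1L4, and changed no call. Median-ratio scaling moved all ratios of a comparison by about the same amount, from -0.10 in GFP-DDX3X WT against GFP to 0.08 in DDX3X siRNA against control siRNA. Over the 7 comparisons it changed 10 calls and the sign of 4 values. The count of members past 1.2-fold became 0 in DDX3X siRNA against control siRNA and 0 in G302V against GFP-DDX3X WT. It became 2 in GFP-DDX3X WT against GFP, 4 in T275M against GFP and 4 in G302V against GFP, all lower. At a 1.5-fold threshold it was 0 in each of the 4 comparisons that had a call, DDX3X siRNA against control siRNA, T275M and G302V against GFP, and G302V against GFP-DDX3X WT. With DDX3X reads left out of the totals, an alternative chosen after seeing the data, T275M against GFP gave 0, and ANP32B in G302V against GFP also lost its call. No paired analysis was possible because each group held 1 library. For the same reason no library could be left out, and counting intervals, narrow at these depths, say nothing of the spread between cultures.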
